A study of Mus musculus with 21 samples.

Results

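The genes of glycolysis and pyruvate metabolism were examined: the carriers that bring glucose in, the enzymes from hexokinase to pyruvate kinase, the enzymes and carriers of lactate, the pyruvate dehydrogenase step with its kinases and the mitochondrial pyruvate carrier, and 4 glycogen enzymes. The 34 genes were listed by name, and a row with that gene symbol was looked up in both tables of RNA levels. All 34 were found among the 39006 genes of the table for cortical nuclei and 32 among the 31551 genes of the table for Neuro2a, a mouse neuroblastoma line. Ldhb and Pdk3 were not analysed here in Neuro2a. All 34 in nuclei and all 32 in Neuro2a passed the filter on low values.

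The libraries were polyA RNA sequencing from 21 mouse samples, made to study CRISPR activation (CRISPRa) of the sodium channel gene Scn2a, in which a Cas9 that cannot cut (sadCas9), joined to the activator VP64, is led to a promoter by a guide RNA (sgRNA). The Neuro2a CRISPRa group was 6 libraries, from cells given 750 ng of sgRNA plasmid and 750 ng of sadCas9-VP64 plasmid. The VP64 only group was 6 libraries, from cells given sadCas9-VP64 without the guide, with 750 ng of plasmid recorded. Whether the total amount of plasmid was the same in both groups was not established here. All 12 libraries carry the activator, and the VP64 only cells are a control without guide rather than untreated cells. The nuclei groups were 3 Het CRISPRa libraries (Scn2a+/- mice given 500 nL of rAAV with the guide and the activator into the medial prefrontal cortex and used 4 weeks later), 3 Het libraries (Scn2a+/-) and 3 WT libraries, all on a C57BL/6J background. The labels give no age, and no injection for Het or WT mice. Nuclei were sorted for the neuronal protein NeuN from 200.0 mg of cortex, a piece that can be larger than the injected region. The Neuro2a library names carry a 7 or an 8, called library sets here, with replicates 1 to 3 of both groups in set 7 and replicates 4 to 6 in set 8. The labels do not say what the sets are, nor that replicates came from separate cultures, so p-values measure the spread between these libraries, which may be technical.

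Glycolysis splits glucose into pyruvate in the cytosol and yields ATP and NADH without oxygen. Pyruvate is then either reduced to lactate by lactate dehydrogenase and exported with a proton, or carried into mitochondria and turned into acetyl-CoA by pyruvate dehydrogenase, which the pyruvate dehydrogenase kinases switch off. Many of these genes are known targets of the hypoxia-inducible factors, and neurons and tumour cells are known to use different isozymes at several steps.

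Levels are reads per 1000000 reads of the library (CPM), and ± on a level is the SD over libraries. Read depth was 15.5 to 21.0 (Neuro2a) and 15.5 to 20.1 (nuclei) in units of 1000000 reads. A change is a difference in mean log2(CPM + 0.5), given with its SE from limma, and a gene was called where the Benjamini-Hochberg adjusted p, over all genes tested, was under 0.05. Scn2a, the targeted gene, stood at 4.09 to 5.33 CPM in CRISPRa against 2.84 to 3.46 CPM in VP64 only, with no overlap. In nuclei it stood at 258 to 291 CPM in Het CRISPRa, 203 to 260.3 CPM in Het and 230 to 266 CPM in WT. The Het and WT ranges overlap, and the altered stretch of the Scn2a allele is not given in the sources used here, so this level checks no genotype label. The sadCas9-VP64 RNA differed between the sets, at 564 to 632 CPM (set 8) and 1683 to 2154 CPM (set 7) in CRISPRa, against 318 to 369.8 CPM (set 8) and 2498 to 2646 CPM (set 7) in VP64 only. The marker transgene mCherry-puro was at 1574 to 1927 CPM (set 8) and 4626 to 5782 CPM (set 7) in CRISPRa and at 0 in VP64 only. Summed sympathoadrenal markers of neuroblastoma reached 1549 to 1809 CPM in CRISPRa and 1843 to 2044 CPM in VP64 only, and in both groups Rbfox3 (the gene of NeuN) was at or below 0.382 CPM. In nuclei Rbfox3 stood at 260.3 to 279 CPM in Het CRISPRa, 288 to 358 CPM in Het and 267 to 316 CPM in WT, while summed astrocyte markers still reached 231 to 289 CPM and oligodendrocyte markers 99.4 to 122 CPM.

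In Neuro2a, RNA of the glycolytic route was lower in CRISPRa than in VP64 only at nearly every step. In the mean of both library sets, 25 of the 32 genes fell and 1 rose, against 17.7% of the 14398 genes tested that fell and 29.6% that rose. With either direction counted, 26 of the 32 were called, beside 47.3% of all genes tested. Over all genes 4262 rose and 2545 fell, and this balance turned to 3109 and 3592 with median-of-ratios scaling and to 3090.0 and 3416 with quantile scaling, while 1 of the 32 genes rose and 26 or 25 fell. The median log2 change was -0.51 over the 32 genes and 0.06 over all genes tested. Both glucose carriers, all 9 enzymes from aldolase to pyruvate kinase, and the lactate enzyme with both lactate carriers fell. At the hexose step 5 of 8 fell, at the pyruvate dehydrogenase step 3 of 6, and among the glycogen enzymes 3 of 4. The single gene that rose was Pgm2.

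The summed level of the 32 genes was 13336 to 16684 CPM in CRISPRa, against 21087 to 24118 CPM in VP64 only, in set 8. In set 7 the sum was 12020.0 to 13419 CPM in CRISPRa, against 16635 to 17359 CPM in VP64 only. The groups did not overlap within either set, but the highest CRISPRa library, of set 8, lay just above the lowest VP64 only library, of set 7. Taken gene by gene over all 12 libraries, 12 of the 32 genes were lower in every CRISPRa library than in every VP64 only library and none was higher in every one, beside 3.01% and 5.74% of all genes tested.

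**Figure D1:**
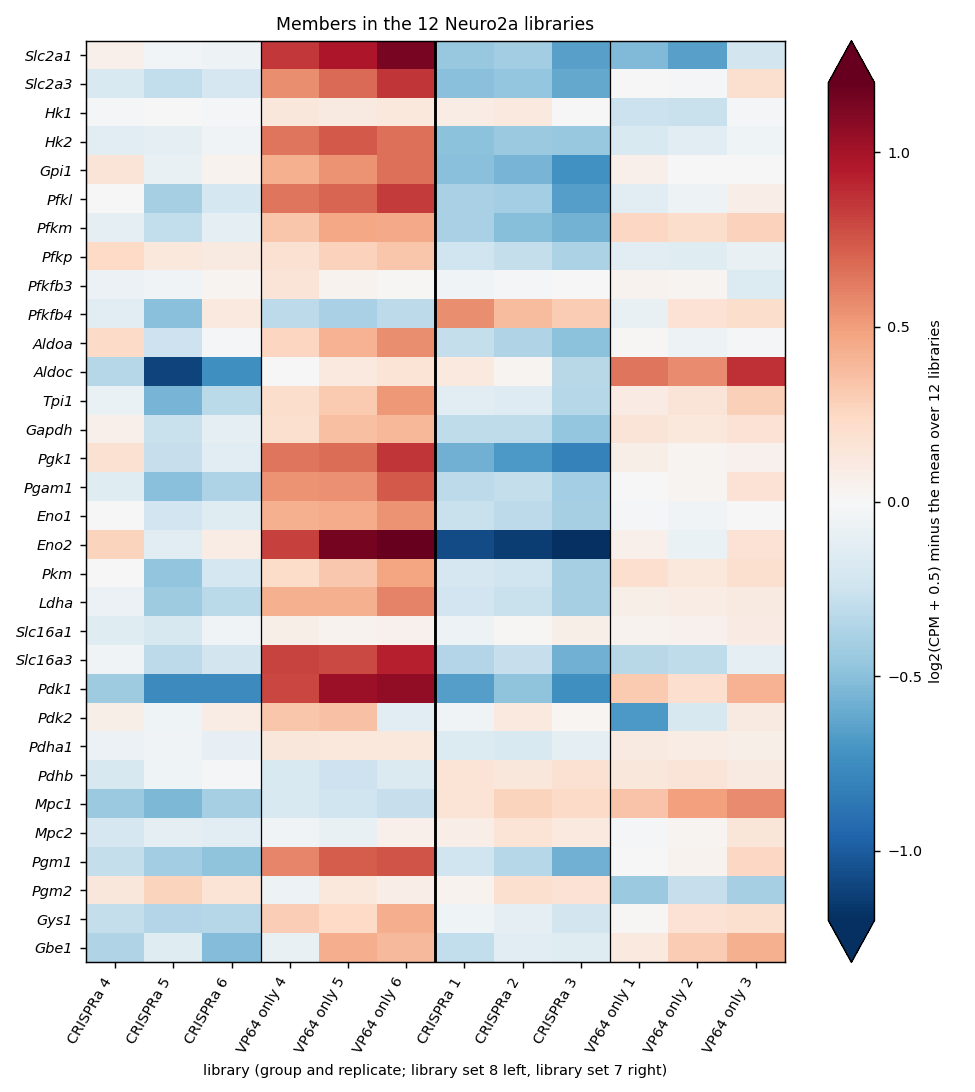
Level of 32 genes in the 12 Neuro2a libraries, as log2(CPM + 0.5) minus the gene's mean over the 12 libraries (colour), one column per library and one row per gene in the order of the pathway. The 3 VP64 only libraries of set 8 are high (red) for most rows and the CRISPRa libraries of both sets are low (blue), while Pfkfb3, Pdk2, Pdhb and Mpc2 show little of this.

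Stretches before the gene start are shown for 7 genes, because many glycolytic genes carry the core of the hypoxia response element there, and because these 7 cover the range of changes below. The sequences are from RefSeq on the build GRCm38.p6, each the 250 bases before an annotated start (the first one, where there are several), 5′ to 3′ on the gene's strand. The authors' own build is mm39, and the deposited tables hold no coordinates. Capitals mark ACGTG or GCGTG read on either strand. Where ACGTG is present on both strands at overlapping positions, it is counted once for each.
Pdk1 (chr2:71872974-71873223, plus strand; 1 match; log2 change -1.28): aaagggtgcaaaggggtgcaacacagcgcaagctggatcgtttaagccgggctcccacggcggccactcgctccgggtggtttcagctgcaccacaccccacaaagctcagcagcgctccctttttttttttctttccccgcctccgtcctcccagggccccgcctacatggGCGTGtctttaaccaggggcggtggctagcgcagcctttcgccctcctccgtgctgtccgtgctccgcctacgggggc
Pgk1 (chrX:106186850-106187099, plus strand; 2 matches; log2 change -0.77): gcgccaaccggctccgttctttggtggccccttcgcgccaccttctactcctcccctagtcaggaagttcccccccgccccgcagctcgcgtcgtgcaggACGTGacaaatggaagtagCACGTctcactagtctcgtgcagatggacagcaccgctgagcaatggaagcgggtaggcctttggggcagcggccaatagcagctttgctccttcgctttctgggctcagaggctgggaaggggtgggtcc
Ldha (chr7:46845554-46845803, plus strand; 5 matches; log2 change -0.57): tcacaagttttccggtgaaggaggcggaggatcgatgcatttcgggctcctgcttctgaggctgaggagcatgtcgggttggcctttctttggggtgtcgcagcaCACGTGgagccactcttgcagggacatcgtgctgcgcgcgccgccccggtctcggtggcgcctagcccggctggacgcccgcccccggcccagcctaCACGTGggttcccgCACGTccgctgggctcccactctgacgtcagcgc
Slc16a3 (chr11:120948817-120949066, plus strand; 2 matches; log2 change -0.59): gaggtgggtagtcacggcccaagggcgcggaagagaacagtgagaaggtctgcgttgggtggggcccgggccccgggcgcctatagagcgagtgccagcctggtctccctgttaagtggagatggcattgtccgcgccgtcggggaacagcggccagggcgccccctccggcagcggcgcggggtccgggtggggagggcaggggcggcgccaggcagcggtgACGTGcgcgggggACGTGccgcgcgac
Slc2a1 (chr4:119108495-119108744, plus strand; 2 matches; log2 change -0.52): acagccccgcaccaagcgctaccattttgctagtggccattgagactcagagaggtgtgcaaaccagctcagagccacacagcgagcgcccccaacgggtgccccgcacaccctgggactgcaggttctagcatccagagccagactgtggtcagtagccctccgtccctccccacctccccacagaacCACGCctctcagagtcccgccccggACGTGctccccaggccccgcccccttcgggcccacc
Eno2 (chr6:124769674-124769923, minus strand; 0 matches; log2 change -1.11): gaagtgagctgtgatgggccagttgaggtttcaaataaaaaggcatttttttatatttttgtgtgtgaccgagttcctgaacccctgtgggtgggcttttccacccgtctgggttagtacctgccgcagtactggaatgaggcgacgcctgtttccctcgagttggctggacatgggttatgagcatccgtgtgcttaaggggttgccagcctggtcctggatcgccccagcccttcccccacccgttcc
Pgm2 (chr5:64092689-64092938, plus strand; 1 match; log2 change 0.32): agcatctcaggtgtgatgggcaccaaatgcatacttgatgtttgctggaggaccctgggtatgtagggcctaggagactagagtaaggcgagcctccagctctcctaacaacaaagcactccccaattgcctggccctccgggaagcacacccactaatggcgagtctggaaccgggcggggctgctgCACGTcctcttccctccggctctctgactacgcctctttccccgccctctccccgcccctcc

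Eno2, which had the second largest fall of the 32 genes, has no match in this window, and Pgm2, the gene that rose, has 1. RefSeq starts were found for 33 of the 34 genes, and at least 1 match was found before a start in 28 of them (84.8%). The share was 61.5% over the 9877 genes tested in Neuro2a that had a start in the table, and 41.5% over all 27025 genes of the table. A gene with several starts had more windows to hold a match. Counted by start, the share was 75% of 48 for the list and 55.2% of 12686 for genes tested in Neuro2a. The 33 genes include Ldhb and Pdk3, which were not tested in Neuro2a. Within the list, 19 of the 24 genes that fell and had a start held a match (79.2%), and so did all 7 of the genes tested that did not fall. A match is a run of letters and says nothing of binding.

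Glucose enters by facilitative carriers, of which Slc2a1 (GLUT1) is the common one and Slc2a3 (GLUT3) the high-affinity carrier of neurons. In set 8, Slc2a3 stood at 158, 146 and 156 CPM in CRISPRa, against 264, 289 and 326 CPM in VP64 only. In set 7 it stood at 127, 129.9 and 117 CPM in CRISPRa, against 178, 177 and 205 CPM in VP64 only. Each CRISPRa library lay below each VP64 only library across both sets, and Slc2a3 fell by 0.75 on the log2 scale (-0.75 ± 0.05, limma adjusted p = 7.11e-11). Slc2a1 stood at 93.7, 87.7 and 86.4 CPM in CRISPRa, against 162, 176 and 198 CPM in VP64 only in set 8. Its levels in set 7 were 65.5, 67.0 and 57.2 CPM in CRISPRa, against 62.0, 57.1 and 77.3 CPM in VP64 only. Here the groups were apart in set 8 and overlapped in set 7, so the mean change of -0.52 ± 0.06 (limma adjusted p = 8.45e-07) comes from set 8.

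Hexokinases trap glucose as glucose 6-phosphate. Hk2, the form known to be raised in many tumours, stood at 89.6, 91.2 and 95.6 CPM in CRISPRa, against 155, 165 and 156 CPM in VP64 only in set 8. In set 7 Hk2 stood at 69.9, 72.2 and 71.6 CPM in CRISPRa, against 86.8, 90.5 and 95.3 CPM in VP64 only. The groups were apart within each set, and Hk2 fell (-0.56 ± 0.03, limma adjusted p = 2.95e-11). Hk1, the main hexokinase of brain, did not pass in the mean (0.06 ± 0.04, limma adjusted p = 0.225), and with median-of-ratios scaling its sign turned. In set 8 its levels were 238, 241 and 239.5 CPM in CRISPRa, against 266, 259.9 and 263 CPM in VP64 only, and in set 7 257, 262 and 242 CPM in CRISPRa, against 202, 201 and 239 CPM in VP64 only. CRISPRa libraries were the lower ones in set 8 and the higher ones in set 7.

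Gpi1, the isomerase that makes fructose 6-phosphate, fell with -0.56 ± 0.04. Phosphofructokinase, the main committed step, is built from 3 subunits. The liver form Pfkl stood at 338, 255 and 291 CPM in CRISPRa, against 526, 549 and 603 CPM in VP64 only in set 8. In set 7 Pfkl was at 258, 254 and 213 CPM in CRISPRa, against 309.6, 324 and 356 CPM in VP64 only. The muscle form Pfkm stood at 113, 99.5 and 112 CPM in CRISPRa, against 154, 169 and 167 CPM in VP64 only in set 8. No library of CRISPRa reached the VP64 only level for either gene within a set. Pfkm was at 92.7, 85.3 and 81.9 CPM in CRISPRa, against 145, 141 and 148 CPM in VP64 only in set 7, apart again. Both fell, Pfkl with -0.69 ± 0.06 (limma adjusted p = 6.53e-09) and Pfkm with -0.66 ± 0.04 (limma adjusted p = 3.57e-11). The platelet form Pfkp changed little, although the fall passed (-0.14 ± 0.03, limma adjusted p = 0.00157). Pfkp stood at 519, 477 and 473 CPM in CRISPRa, against 497, 530.4 and 551 CPM in VP64 only in set 8, where the groups overlapped. In set 7 its levels were 372, 360.1 and 337 CPM in CRISPRa, against 399, 398 and 413 CPM in VP64 only, without overlap. The bifunctional enzymes that set the level of fructose 2,6-bisphosphate, an activator of phosphofructokinase, did not pass, with -0.04 ± 0.04 for Pfkfb3 (limma adjusted p = 0.424) and 0.24 ± 0.12 for Pfkfb4 (limma adjusted p = 0.103). Pfkfb4 is a scarce RNA here, at 2.83 to 6.45 CPM in CRISPRa and 3.11 to 4.96 CPM in VP64 only.

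From aldolase to pyruvate kinase all 9 genes fell, by 0.39 to 1.11 on the log2 scale. Aldolase splits the 6-carbon sugar, and its brain form Aldoc stood at 29.6, 17.1 and 22.3 CPM in CRISPRa, against 37.6, 40.7 and 42.2 CPM in VP64 only in set 8. In set 7 Aldoc stood at 40.8, 38.4 and 29.7 CPM in CRISPRa, against 58.9, 56.0 and 69.3 CPM in VP64 only. The groups were apart in each set (-0.79 ± 0.10, limma adjusted p = 1.25e-06), and set 8 held the lower levels in both groups. The main form Aldoa fell by less (-0.39 ± 0.06), with 1875, 1340.4 and 1573 CPM in CRISPRa, against 1902, 2134 and 2352 CPM in VP64 only in set 8 and 1307, 1239 and 1135 CPM in CRISPRa, against 1614, 1532 and 1581 CPM in VP64 only in set 7. The highest CRISPRa library of set 8 lay just below the lowest VP64 only library there.

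Tpi1, which interconverts the triose phosphates, fell with -0.53 ± 0.06, and Gapdh, which makes the NADH of glycolysis, fell with -0.47 ± 0.05. Pgk1 makes the first ATP of the pathway. It stood at 1386, 1009 and 1112 CPM in CRISPRa, against 1911, 1949 and 2217 CPM in VP64 only in set 8. Its set 7 levels were 819, 758 and 697 CPM in CRISPRa, against 1286, 1252 and 1265 CPM in VP64 only. Within each set the groups were apart, and Pgk1 fell (-0.77 ± 0.06, limma adjusted p = 1.05e-09). Pgam1, the phosphoglycerate mutase, stood at 628, 490.5 and 537 CPM in CRISPRa, against 1010.1, 1012 and 1157 CPM in VP64 only in set 8. In set 7 Pgam1 stood at 557, 569 and 521 CPM in CRISPRa, against 689, 711 and 779.7 CPM in VP64 only. The groups were apart in both sets and also over all 12 libraries (-0.67 ± 0.05, limma adjusted p = 9.18e-10).

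Enolase makes phosphoenolpyruvate, and its neuronal form Eno2 gave the second largest change. Eno2 stood at 99.8, 76.0 and 88.6 CPM in CRISPRa, against 147, 185 and 192 CPM in VP64 only in set 8. In set 7 it stood at 39.3, 37.4 and 32.0 CPM in CRISPRa, against 86.7, 78.8 and 93.5 CPM in VP64 only. CRISPRa was lower within each set (-1.11 ± 0.07, limma adjusted p = 7.62e-11), but the sets lie so far apart that CRISPRa in set 8 reached the VP64 only levels of set 7. The common form Eno1 fell by less (-0.45 ± 0.04), with 2645, 2251 and 2392 CPM in CRISPRa, against 3559.8, 3601 and 3845 CPM in VP64 only in set 8 and 2195, 2129.8 and 2004 CPM in CRISPRa, against 2616, 2561 and 2658 CPM in VP64 only in set 7. Pkm, the pyruvate kinase that ends the pathway, fell with -0.51 ± 0.06 (limma adjusted p = 5.4e-07).

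Near-identical copies elsewhere in the genome can share reads with some of these genes. Copies with a row of their own held over 10% of the summed CPM for 2 genes in Neuro2a, Gapdh (22.4%) and Eno1 (38.1%), against 3.78% and 0.121% in nuclei, so their levels are uncertain. With the copies added the log2 change was -0.47 for Gapdh and -0.46 for Eno1, beside -0.47 and -0.45 without them.

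**Figure D2:**
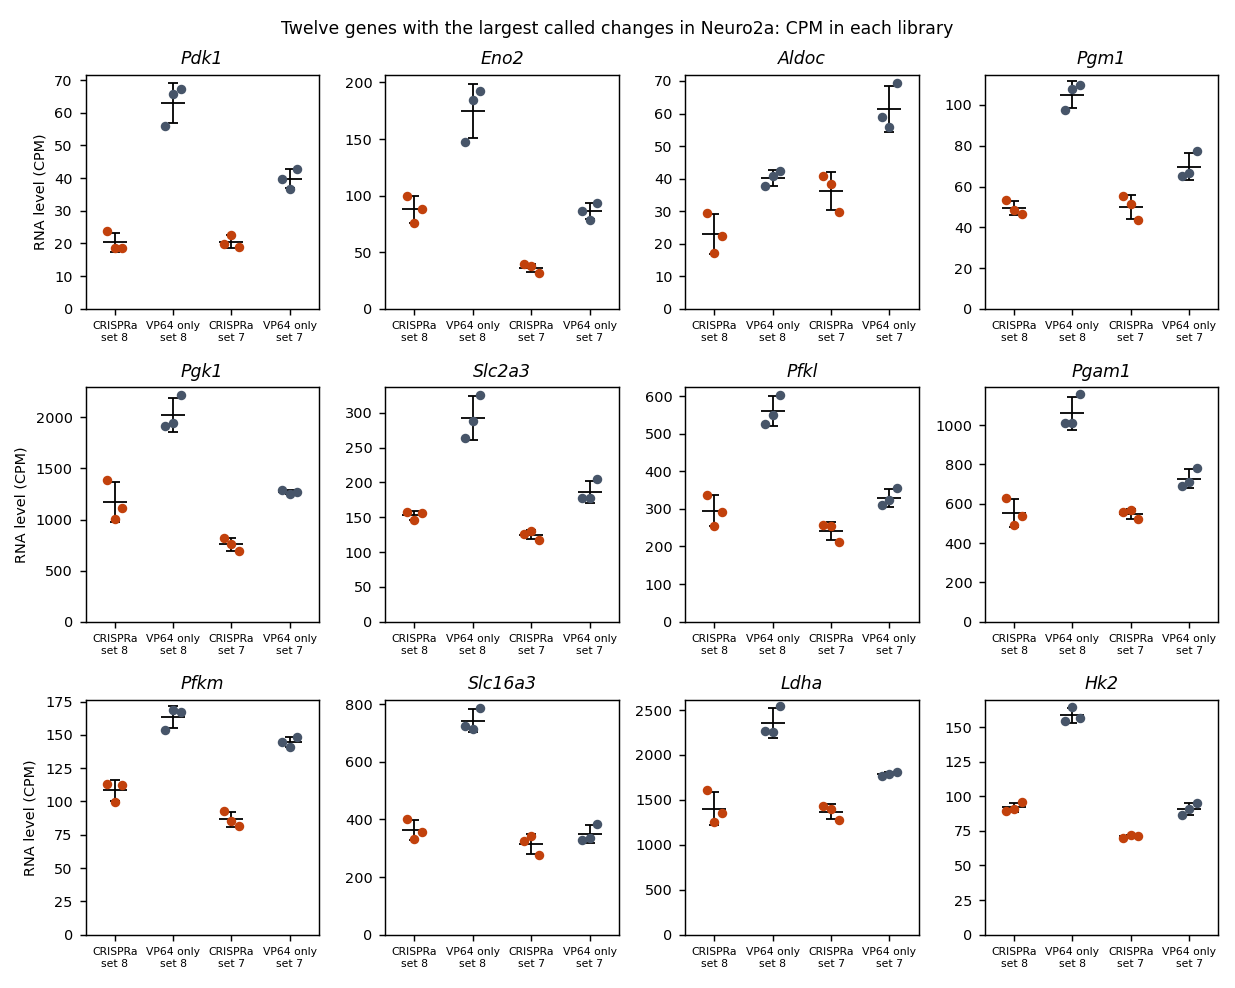
CPM (linear axes from 0) of the 12 genes with the largest called changes in Neuro2a, by group and library set; points are libraries, and the bar and whiskers are the mean and SD of 3 libraries. In set 8 the 3 CRISPRa points lie below the 3 VP64 only points in all 12 panels, and in set 7 they do so in 11, Slc16a3 being the exception, with 324, 343 and 278 CPM in CRISPRa against 329, 335 and 384 CPM in VP64 only.

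Ldha, the lactate dehydrogenase subunit that favours lactate formation, stood at 1605, 1253 and 1349.5 CPM in CRISPRa, against 2263, 2259 and 2543 CPM in VP64 only in set 8. In set 7 Ldha stood at 1434, 1397 and 1276 CPM in CRISPRa, against 1771, 1792 and 1809.9 CPM in VP64 only. The groups were apart in both sets, and over all 12 libraries as well (-0.57 ± 0.05, limma adjusted p = 6.65e-09). Slc16a3 (MCT4), known as the lactate exporter of glycolytic cells, stood at 403, 332 and 355 CPM in CRISPRa, against 725, 716 and 789 CPM in VP64 only in set 8, where VP64 only was far higher. In set 7 its levels were 324, 343 and 278 CPM in CRISPRa, against 329, 335 and 384 CPM in VP64 only, with overlap, and the mean change was -0.59 ± 0.05 (limma adjusted p = 1.15e-08). Slc16a1 (MCT1), the widespread lactate and pyruvate carrier, had the smallest change of the lactate genes, with 185, 179 and 199 CPM in CRISPRa, against 215, 211 and 212 CPM in VP64 only in set 8 and 196, 207 and 215 CPM in CRISPRa, against 211, 213 and 219 CPM in VP64 only in set 7. Its fall passed at -0.12 ± 0.03 (limma adjusted p = 0.00337).

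Pdk1, the kinase that shuts pyruvate dehydrogenase, gave the largest change of the 32 genes. It stood at 23.7, 18.6 and 18.6 CPM in CRISPRa, against 56.0, 65.6 and 67.4 CPM in VP64 only in set 8. In set 7 Pdk1 stood at 20.0, 22.7 and 19.0 CPM in CRISPRa, against 39.9, 36.8 and 42.7 CPM in VP64 only. Every CRISPRa library lay below every VP64 only library, and Pdk1 fell by 1.28 on the log2 scale (-1.28 ± 0.07, limma adjusted p = 5.23e-12). Its paralog Pdk2 was at 1.81 to 4.24 CPM over the 12 libraries and did not pass (0.07 ± 0.14, limma adjusted p = 0.711; negative with quantile scaling or without VP64 only replicate 1 or 6). The VP64 only libraries of Pdk2 spread from end to end of that range, at 4.20, 4.24 and 2.91 CPM in set 8 and 1.81, 2.75 and 3.51 CPM in set 7. CRISPRa lay within it, at 3.40, 3.09 and 3.46 CPM in set 8 and 3.11, 3.54 and 3.28 CPM in set 7.

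The enzyme that Pdk1 acts on moved less than the kinase. Its subunit Pdha1, which carries the phosphorylated sites, fell by a small amount (-0.22 ± 0.03, limma adjusted p = 4.38e-07), with 286, 291 and 281 CPM in CRISPRa, against 329.7, 328 and 328 CPM in VP64 only in set 8 and 268, 264 and 278 CPM in CRISPRa, against 323, 319 and 315 CPM in VP64 only in set 7. All 6 CRISPRa libraries were lower than all 6 VP64 only libraries. Pdhb, the other E1 subunit, did not pass (0.07 ± 0.03, limma adjusted p = 0.0763). The mitochondrial pyruvate carrier is a pair of proteins, of which Mpc1 fell (-0.24 ± 0.05, limma adjusted p = 0.000436) and Mpc2 did not pass (-0.03 ± 0.05, limma adjusted p = 0.669).

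Among the glycogen genes, Pgm2 moved in the opposite direction to Pgm1, the phosphoglucomutase that links glucose 6-phosphate with glucose 1-phosphate. Pgm1 stood at 53.3, 48.6 and 46.5 CPM in CRISPRa, against 97.8, 108 and 109.8 CPM in VP64 only in set 8. In set 7 Pgm1 stood at 55.1, 51.3 and 43.4 CPM in CRISPRa, against 65.0, 66.9 and 77.3 CPM in VP64 only. CRISPRa was lower in each set (-0.78 ± 0.06, limma adjusted p = 7.05e-10). Pgm2, a phosphopentomutase by its main known activity, stood at 31.2, 34.3 and 31.8 CPM in CRISPRa, against 27.2, 31.1 and 30.0 CPM in VP64 only in set 8. In set 7 Pgm2 stood at 29.3, 32.4 and 32.1 CPM in CRISPRa, against 20.7, 23.4 and 21.4 CPM in VP64 only. Its CRISPRa libraries were above VP64 only in both sets, by a wider margin in set 7. The mean rise passed (0.32 ± 0.05, limma adjusted p = 4.46e-05). The rise did not pass in set 8 alone, nor in the authors' deposited table (DESeq2 adjusted p = 0.121). Gys1, the glycogen synthase of most tissues, fell with -0.45 ± 0.04, and Gbe1, the branching enzyme, a scarce RNA at 4.35 to 5.88 CPM in CRISPRa and 6.01 to 8.90 CPM in VP64 only, fell with -0.53 ± 0.11.

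**Figure D3:**
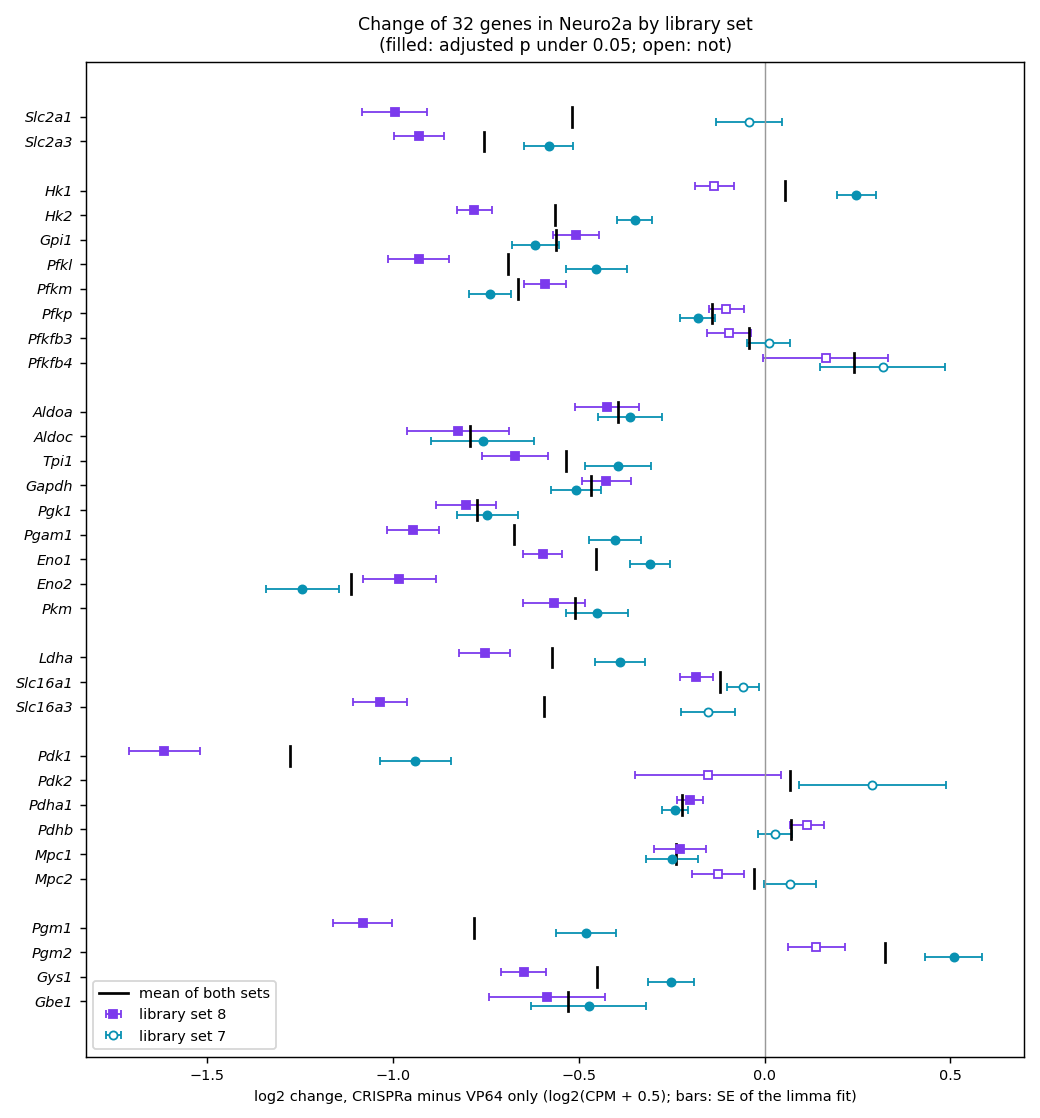
Log2 change of 32 genes in Neuro2a, CRISPRa minus VP64 only, for library set 8 (squares) and set 7 (circles) with the SE of the limma fit; filled symbols passed at an adjusted p under 0.05, and the black line is the mean of both sets. Slc2a1 and Slc16a3 are near 0 in set 7 and near -1 in set 8, while Pgk1 (-0.80 in set 8, -0.75 in set 7) and Gapdh (-0.43 in set 8, -0.51 in set 7) lie close together.

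The fall was seen in both library sets and was larger in set 8 for part of the genes. In set 8, 24 of the 32 genes fell and 0 rose, beside 10.4% and 14.4% of all genes tested; in set 7, 22 fell and 2 rose (Hk1 and Pgm2), beside 17% and 29.7%. The medians over the 32 genes were -0.59 in set 8 and -0.36 in set 7, against medians over all genes of 0.02 and 0.09. By their own tests 21 of the 32 genes fell in both sets, beside 5.82% of all genes tested. Here too the balance over all genes turned with scaling. In set 8, 2073 genes rose and 1502 fell, against 1644 and 1973 with median-of-ratios and 1676 and 1808 with quantile scaling. In set 7, 4276 rose and 2443 fell, against 3084 and 3401 with median-of-ratios and 3085 and 3212 with quantile scaling. Under these scalings 24 to 26 of the 32 genes fell in set 8 and 21 to 24 in set 7. In set 8, 26 of the 32 genes were lower in all 3 CRISPRa libraries than in all 3 VP64 only libraries and 1 was higher (16.5% and 21.9% of all genes tested), and in set 7 this held for 22 and 3 (19.6% and 34.6%).

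The difference between the sets was tested directly, as the set 8 effect minus the set 7 effect. It passed as lower for 13 of the 32 genes and as higher for none, beside 12.3% and 9.42% of all genes tested, with a median of -0.17 over the 32 genes and -0.05 over all genes. Over all genes the difference was higher for 1357 and lower for 1775, but higher for 1792 and lower for 1281 with median-of-ratios scaling, and higher for 1540.0 and lower for 1425 with quantile scaling, where 13 and 12 of the 32 genes were lower and none higher. The largest difference was that of Slc2a1, -0.95 ± 0.12 (limma adjusted p = 1.89e-05), with a change of -0.99 ± 0.09 in set 8 and -0.04 ± 0.09 in set 7. The lactate exporter Slc16a3 followed with -0.88 ± 0.10 (limma adjusted p = 5.52e-06), from changes of -1.03 in set 8 and -0.15 in set 7. Pdk1 fell in both sets and more in set 8, with -1.61 in set 8, -0.94 in set 7 and a difference of -0.68 ± 0.14. For Pgm1 the difference was -0.60 ± 0.11, for Pgam1 -0.54 ± 0.10 and for Pfkl -0.48 ± 0.12. Eno2 leaned the other way without passing (0.26 ± 0.14, limma adjusted p = 0.195).

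The sets also differed within each group. In CRISPRa, 13 of the 32 genes were higher in set 8 than in set 7 and 7 were lower, beside 21.3% and 33.4% of all genes tested, with a median of 0.04 over the 32 genes and -0.08 over all genes. Over all genes 3068 were higher and 4802 lower in set 8, against 3852 and 3747 with median-of-ratios and 3828 and 3829 with quantile scaling, where 14 and 12 of the 32 genes were higher. In VP64 only, 20 were higher in set 8 and 4 were lower, beside 19.9% and 25.9% of all genes, with medians of 0.39 and -0.03. The 4 lower genes, Pfkfb4, Aldoc, Mpc1 and Pdhb, were lower in set 8 in CRISPRa too. All 13 genes with a lower effect in set 8, Pgm2 and Hk1 included, were among the 20 that were higher in set 8 in VP64 only, but these comparisons use the same VP64 only libraries. For Slc2a1 the set difference was 0.50 ± 0.09 in CRISPRa and 1.45 ± 0.09 in VP64 only. For Slc16a3 it was 0.21 ± 0.07 in CRISPRa and 1.09 ± 0.07 in VP64 only. Pdk1 differed between the sets by -0.02 ± 0.10 in CRISPRa, within its error of 0, and by 0.65 ± 0.10 in VP64 only. Eno2 was higher in set 8 in both groups, by 1.27 ± 0.10 in CRISPRa and 1.01 ± 0.10 in VP64 only.

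Other RNA moved with these genes, beside 29.6% of all genes tested that rose and 17.7% that fell in the mean comparison. All 14 interferon response genes tested rose in CRISPRa over VP64 only (median 1.21), and their summed level was 3653 to 5437 CPM in CRISPRa and 1495 to 2895 CPM in VP64 only. Of 13 mitochondrially encoded mRNAs, 11 rose and none fell (median 0.53). Their summed level was 10546 to 14178 CPM in CRISPRa and 7864 to 9988 CPM in VP64 only. The sympathoadrenal markers Dbh (-0.72) and Prph (-0.25) fell, and the summed level of such markers was lower in every CRISPRa library than in every VP64 only library. Between the sets, the interferon genes of VP64 only were all lower in set 8 (14 of 14, median -0.91), beside 25.9% of all genes tested. There 20 of the 32 glycolytic genes were higher, beside 19.9% of all genes tested. The part of these shifts, of the sadCas9-VP64 level and of the library set in the glycolytic changes was not tested. The mCherry-puro RNA was at 0 in VP64 only and present in CRISPRa, so its part and that of the guide cannot be told apart. The same holds for any difference in the amount of plasmid between the groups. Fewer cells of a type and less RNA per cell cannot be told apart in bulk libraries either.

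Among genes of the neighbouring pathways calls went in both directions, as over all genes tested, where 29.6% rose and 17.7% fell. Counts near these shares say nothing particular of a list. Hypoxia genes mostly fell. Of 16 other isozymes and glucose carriers tested in the mean comparison, 4 rose and 3 fell (median 0.02). The called ones with the largest changes were the lysosomal hexose carrier Slc2a6 (0.61), Bsg, the basigin chaperone of the lactate carriers (-0.42), the hexokinase-like Hkdc1 (0.38) and the mitochondrial phosphatase Pgam5 (0.29). Of 10 pentose phosphate genes, 3 rose and 3 fell (median -0.05). Among them the dehydrogenases of the oxidative branch rose, Pgd by 0.56 and G6pdx by 0.31, as did ribokinase Rbks by 0.77, while the isomerase Rpia had -0.26.

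Of 18 tricarboxylic acid cycle genes, 9 fell and 5 rose, all by little (median -0.06), beside 17.7% and 29.6% of all genes tested. The largest called changes were in citrate synthase Cs (-0.29), Idh2 (-0.25), Suclg2 (-0.23) and Ogdh (0.19). Of 9 other pyruvate genes, 3 rose and 3 fell (median 0.09). Pdp1, the phosphatase that undoes the action of the pyruvate dehydrogenase kinases, rose by 0.50, and Dlat, the E2 subunit, rose by 0.13. The mitochondrial Pck2, which makes phosphoenolpyruvate, fell with -0.28, and malic enzyme Me1 with -0.23. Of 17 other glycogen genes, 6 fell and 2 rose (median -0.15). They include the phosphorylase Pygl (-0.49), the glycogen tether Stbd1 (-0.42), the primer protein Gyg1 (-0.32) and the phosphorylase kinase subunit Phkb, which rose (0.28).

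Hypoxia genes outside glycolysis fell with the glycolytic ones. Of 19 tested, 16 fell and 2 rose, beside 17.7% and 29.6% of all genes tested, with a median of -0.63 over the 19. Bnip3, a mitophagy receptor, was at 57.1 to 93.9 CPM in CRISPRa and 131 to 321 CPM in VP64 only (-1.58 ± 0.09, limma adjusted p = 2.69e-11). Ndrg1, the vasodilator peptide gene Adm and Ankrd37 also fell, with -1.34, -1.27 and -1.28. This list was chosen with the fall of such genes already known and is no independent support.

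Among 7 glucose-sensing factors and their targets, 4 rose and 2 fell, beside 29.6% and 17.7% of all genes tested. Txnip, a brake on glucose uptake that is induced by glucose, changed in one library set alone. It was at 238 to 256 CPM in the CRISPRa libraries of set 7, against 11.3 to 14.0 CPM in VP64 only of that set. In set 8 it was at 15.9 to 19.5 CPM in CRISPRa, against 16.4 to 20.0 CPM in VP64 only. The change was thus 0.02 ± 0.09 in set 8 and 4.26 ± 0.09 in set 7, and the difference between sets was -4.24 ± 0.13 (limma adjusted p = 8.8e-15). Mlx, partner of the glucose sensor, rose by 0.33. Of the listed genes that are not themselves glucose sensors, Max rose by 0.21 and Esrra had -0.18.

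In sorted cortical nuclei none of the 34 genes was called in any comparison. The background was 0% of 18967 genes for Het minus WT, 0.0422% for Het CRISPRa minus Het and 0.00527% for Het CRISPRa minus WT, so the absence of calls holds for nearly all genes. At an unadjusted limma p under 0.05 there were 3 of the 34 genes for Het minus WT (5.01% of all genes), 0 for Het CRISPRa minus Het (5.25%) and 2 for Het CRISPRa minus WT (1.77%). These counts move with single libraries. Without Het replicate 3 they were 5 of the 34 genes and 2635 of all genes for Het minus WT, in place of 3 and 951, and 4 and 3152 for Het CRISPRa minus Het, in place of 0 and 996. With the other libraries left out one at a time, 1 to 3 of the 34 genes had such a p for Het minus WT, 0 for Het CRISPRa minus Het and 0 or 1 for Het CRISPRa minus WT. None of the 34 genes was called in any of these fits. In the same order, the medians were -0.03, -0.04 and -0.06 over the 34 genes and -0.05, 0.04 and -0.02 over all genes tested. Their signs are not stable: the Het minus WT median was 0.03 with median-of-ratios scaling, where 21 of the 34 genes lay above 0 in place of 13, and 0.00096 without WT replicate 2, and the Het CRISPRa minus Het median was 0.02 without Het replicate 1. Each of these comparisons shares a group of libraries with each of the others. The summed level of the 34 genes was 4851 to 5116 CPM in Het CRISPRa, 4802 to 5510.3 CPM in Het and 4660.0 to 5343 CPM in WT, which overlap.

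The genes with the smallest p are given as values that did not pass. Pdk1 stood at 98.8, 113 and 116 CPM in Het CRISPRa, 124, 95.5 and 101 CPM in Het and 125, 138 and 136 CPM in WT. The WT libraries were the 3 highest, and the change was -0.33 ± 0.11 for Het minus WT (unadjusted p = 0.0136, limma adjusted p = 0.875) and -0.29 ± 0.11 for Het CRISPRa minus WT (unadjusted p = 0.0255, limma adjusted p = 1). Pgam1 stood at 31.1, 27.1 and 21.4 CPM in Het CRISPRa, 24.2, 25.8 and 24.6 CPM in Het and 30.1, 32.9 and 33.1 CPM in WT. Het lay below WT throughout (-0.36 ± 0.14), while Het CRISPRa spread across both (-0.28 ± 0.14 against WT). Pgk1 stood at 34.2, 33.6 and 29.4 CPM in Het CRISPRa, 31.4, 30.0 and 26.7 CPM in Het and 37.6, 38.7 and 31.3 CPM in WT. The highest Het library lay just above the lowest WT library (-0.28 ± 0.13 for Het minus WT).

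Ldhb, the subunit that favours pyruvate formation, stood at 37.7, 35.6 and 35.9 CPM in Het CRISPRa and 44.4, 47.6 and 40.2 CPM in WT. The groups were apart (-0.27 ± 0.12, unadjusted p = 0.0372, limma adjusted p = 1), and Het, at 44.3, 42.8 and 36.9 CPM, overlapped both. For Het CRISPRa minus Het the smallest p were those of Slc2a3 (0.22 ± 0.11), Tpi1 (0.22 ± 0.12) and Pfkfb4 (0.17 ± 0.11). Slc2a3 stood at 168, 188 and 192 CPM in Het CRISPRa and 149, 150.2 and 173 CPM in Het, and 1 Het library lay inside the Het CRISPRa range. Tpi1 stood at 44.2, 41.7 and 43.4 CPM in Het CRISPRa and 33.4, 36.2 and 41.4 CPM in Het, without overlap. Pfkfb4 stood at 62.0, 69.3 and 66.4 CPM in Het CRISPRa and 52.2, 59.4 and 63.8 CPM in Het, with 1 library overlapping.

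Few genes had groups without overlap. For Het minus WT 1 gene was higher and 3 lower in every library (3.37% and 7.3% of all genes), for Het CRISPRa minus Het 1 and 3 (5.37% and 4.61%), and for Het CRISPRa minus WT 1 and 3 (2.68% and 4.46%). Summed mitochondrially encoded mRNAs differed between libraries, at 6997 to 7922 CPM in Het CRISPRa, 8524 to 17693 CPM in Het and 7412 to 11724 CPM in WT. All 13 of them had a negative difference for Het CRISPRa minus Het (median -0.77, 0 of 13 called). Their part in these values was not tested. The SE of the 34 changes ran from about 0.08 for Pdhb to 0.37 for Hk2, which was barely detected at 0.279 to 0.682 CPM in Het CRISPRa, 0.237 to 0.746 CPM in Het and 0.193 to 1.06 CPM in WT.

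**Figure D4:**
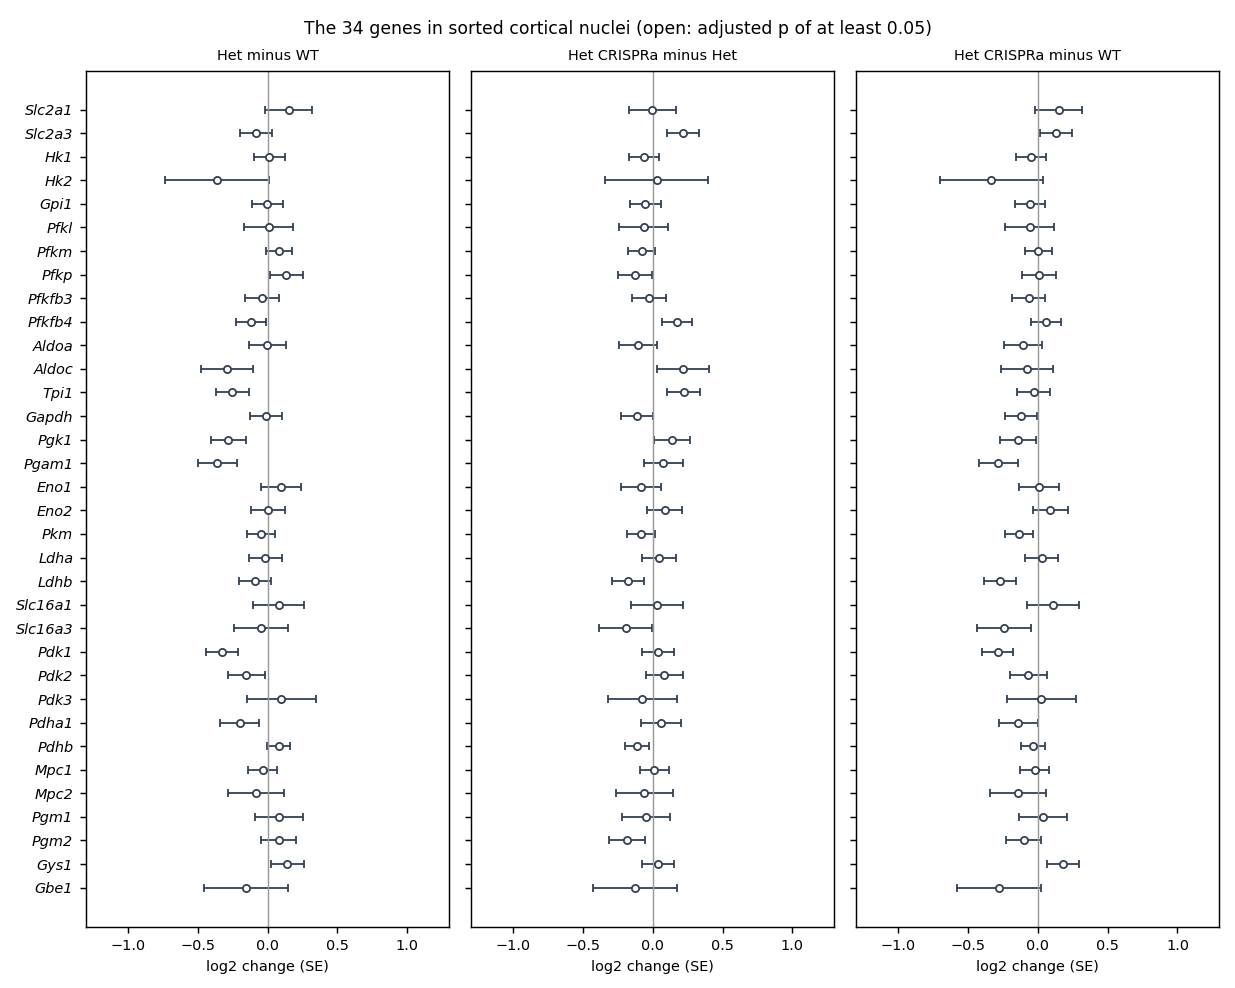
Log2 change of 34 genes in sorted cortical nuclei with the SE of the limma fit (3 libraries a group), for Het minus WT, Het CRISPRa minus Het and Het CRISPRa minus WT; open symbols mark adjusted p of at least 0.05, which holds for all. Pgam1 (-0.36), Pdk1 (-0.33) and Hk2 (-0.36) lie below -0.3 for Het minus WT, and the widest bars are those of Hk2, Gbe1 and Pdk3.

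Levels per exon length (CPM per kb) put the genes in a different order in the cell line and in the nuclei. The tables were normalized separately and no test was made between them. One holds RNA of cells and the other RNA of nuclei, so cell type and cell compartment cannot be told apart here. Eno1 and Gapdh, whose Neuro2a levels are uncertain through their copies, are left out of this order. They are left out in nuclei too, although copies held little there (3.78% for Gapdh and 0.121% for Eno1). The order in nuclei thus covers the remaining genes only. In CRISPRa the most abundant of the other genes were Aldoa (485 ± 92.6 CPM per kb), Pgk1 (429 ± 116) and Ldha (419 ± 38.6), whose SDs overlap. In VP64 only these were Pgk1 (734 ± 191 CPM per kb), Aldoa (636 ± 115) and Ldha (626 ± 98.5), again with overlapping SDs. These Neuro2a SDs take in the difference between the library sets, so their overlap does not tell the order of the genes within a library. Nuclei were led by Gpi1, at 196 ± 10.9 CPM per kb in Het CRISPRa, 204 ± 15.9 in Het and 205 ± 28.1 in WT. Pfkm followed, at 105 ± 9.79 CPM per kb in Het CRISPRa, 110.4 ± 7.32 in Het and 104 ± 6.48 in WT, and did not stand apart from Eno2, at 102 ± 2.60, 97.7 ± 19.9 and 96.1 ± 1.07 CPM per kb in Het CRISPRa, Het and WT. Pgk1 (16.0 ± 1.79 CPM per kb) and Ldha (8.98 ± 0.416) were far lower than these in WT nuclei.

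Isozyme shares per length describe the same contrast, with the same limits. Eno2 made up 67.9 ± 0.729% of the Eno1 and Eno2 sum in WT nuclei, 2.95 ± 1.13% in CRISPRa and 4.40 ± 0.912% in VP64 only, with the copies of Eno1 left out. Hk2 made up 1.02 ± 0.630% of the Hk1 and Hk2 sum in WT nuclei, 32.1 ± 3.81% in CRISPRa and 42.1 ± 4.78% in VP64 only. Slc2a3 made up 85.0 ± 3.10% of both glucose carriers in WT nuclei, 47.1 ± 2.11% in CRISPRa and 51.2 ± 7.72% in VP64 only. Pfkfb4 made up 75.4 ± 0.638% of the Pfkfb3 and Pfkfb4 sum in WT nuclei, but 10.5 ± 2.61% in CRISPRa and 8.65 ± 2.12% in VP64 only. Ldhb made up 75.7 ± 1.44% of lactate dehydrogenase RNA in WT nuclei. Within Neuro2a, the shares of CRISPRa and VP64 only differed where one gene fell and its partner rose, fell less or did not pass: Pdk1 made up 71.4 ± 1.84% of the Pdk1 and Pdk2 sum in CRISPRa and 86.5 ± 3.06% in VP64 only, Pgm1 made up 58.0 ± 3.02% of both mutases in CRISPRa and 74.9 ± 1.88% in VP64 only, and Pfkp made up 31.2 ± 1.74% of the phosphofructokinases in CRISPRa and 23.7 ± 0.976% in VP64 only.

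**Figure D5:**
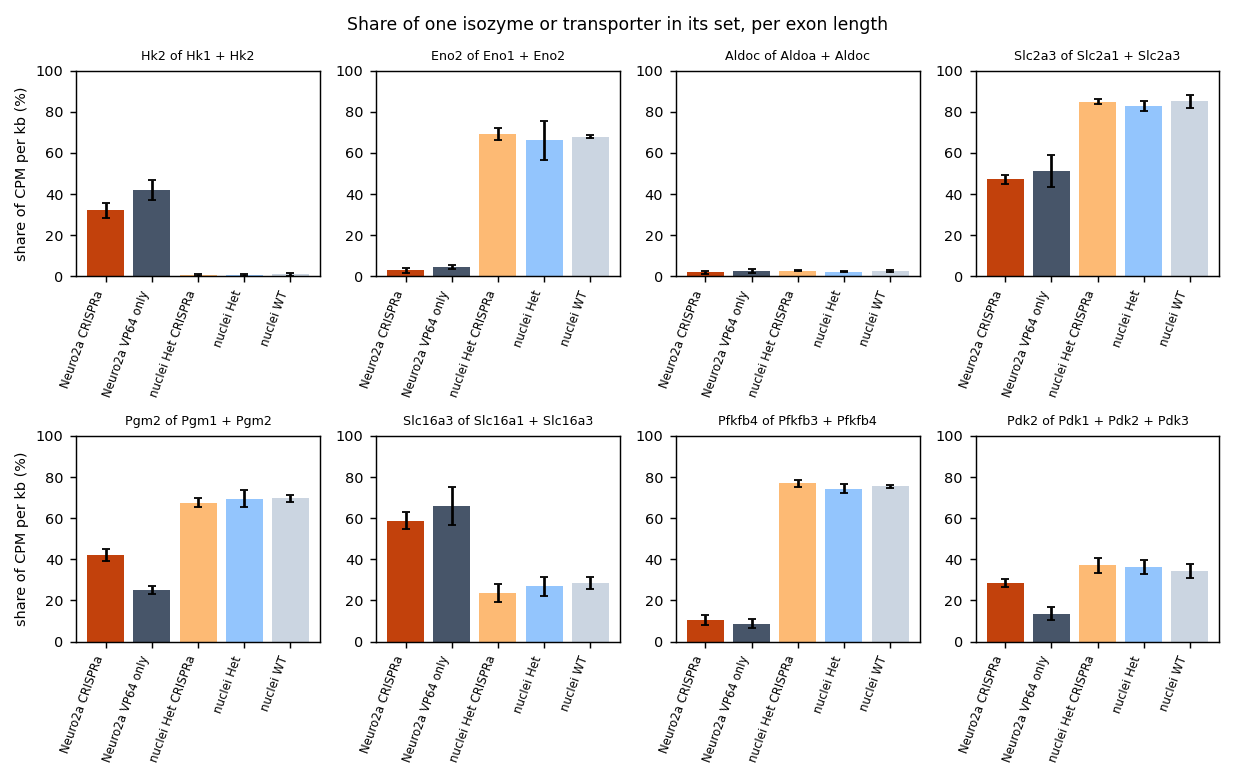
Share (%) of one isozyme or carrier in the summed CPM per kb of its set, by group; bars are means and whiskers SDs over 6 (Neuro2a) or 3 (nuclei) libraries, and all axes run from 0 to 100. Eno2, Slc2a3 and Pfkfb4 have larger shares in nuclei of all 3 groups than in Neuro2a, and Hk2 and Slc16a3 smaller ones; in the Pdk2 panel the Neuro2a sum is without Pdk3.

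In the authors' deposited table for Neuro2a, 22 of the 32 genes fell at an adjusted p under 0.05 and none rose; all 22 were also called here, and 30 of the 32 had the same sign. In the authors' deposited tables for nuclei none of the 34 genes passed in any of the 3 comparisons.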

How the data were processed

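PolyA RNA was sequenced from 12 Neuro2a libraries and 9 libraries of NeuN-sorted cortical nuclei. The deposited tables hold CPM per gene; per the submitters' processing notes, the authors used STAR (2.7.8a), featureCounts, DESeq2 (1.44) and R (4.4) with mm39. The authors' deposited comparison tables hold a log2 fold change with its SE, and a p-value raw and adjusted, per gene.

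Depth was taken as 1000000 over the most frequent CPM step. Of the values, 70.8 to 73.2% (Neuro2a) and 79.9 to 82.4% (nuclei) lay within 0.01 of whole reads, so counts were not recovered and no count test was run. Genes at 0.5 CPM or more in at least 6 Neuro2a or 3 nuclei libraries were tested, transgenes left out, on log2(CPM + 0.5), which understates the change of low genes. limma (3.58.1, R 4.3.3) was fitted with a trend and Benjamini-Hochberg adjustment over all genes, for Neuro2a with a coefficient for each group in each library set and for nuclei with the group alone. The Neuro2a result is the mean of the effects in both sets. Near-identical copies were found with blastn, at 95% identity or more over at least 300 bases. Python (3.11.15), pandas (2.3.3), numpy (2.4.6) and matplotlib (3.10.9) did the rest. The limma fit was tried on simulated data for the mean Neuro2a comparison, the set difference and Het minus WT. Those data had the same spread setting for every gene and no baseline difference between library sets. Exon lengths came from GENCODE on another build than the authors'. Numbers shared between groups in the labels follow the library set and were not used as pairs.

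The genes and lists were chosen with earlier results of these data known. Named genes were the 12 with the largest called changes in the mean comparison, the 6 with the largest called set differences, their partners at the same step, and the 3 with the smallest p in each nuclei comparison; other lists show the 4 largest called changes. Genes outside this rule were named to describe each step, after their values were seen.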

Additional observations from a re-analysis of the deposited data

Results flagged for a closer look

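The difference CRISPRa minus VP64 only in Neuro2a differed between library sets 8 and 7 for 13 genes by the limma test of the difference itself. For glucose carriers it was -0.95 (Slc2a1, limma adjusted p = 1.89e-05) and -0.35 (Slc2a3, limma adjusted p = 0.0115). For the hexose step it was -0.48 (Pfkl, limma adjusted p = 0.00578), -0.43 (Hk2, limma adjusted p = 0.000118) and -0.38 (Hk1, limma adjusted p = 0.000968). Lower glycolysis had -0.54 (Pgam1, limma adjusted p = 0.000589) and -0.29 (Eno1, limma adjusted p = 0.00956). The lactate genes had -0.88 (Slc16a3, limma adjusted p = 5.52e-06) and -0.36 (Ldha, limma adjusted p = 0.0103), and Pdk1 had -0.68 (limma adjusted p = 0.00132). The glycogen genes had -0.60 (Pgm1, limma adjusted p = 0.000744), -0.40 (Gys1, limma adjusted p = 0.00264) and -0.37 (Pgm2, limma adjusted p = 0.0179). Hk1 had effects of opposite sign, with -0.13 ± 0.05 in set 8 and 0.25 ± 0.05 in set 7. Pgm2 rose in set 7 (0.51 ± 0.08) and did not pass in set 8 (0.14 ± 0.08). The labels do not say how the sets differ, so a set and whatever came with it cannot be told apart. None of the 64 groups of 6 libraries, 2 for each of the 32 genes, held a library far from the others by Dixon's criterion. Each group pools both sets, and a gap between sets widens its range. A library apart from its own set could thus be missed.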

How the results depend on the processing

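The counts called among the 32 or 34 genes stayed within 1.5 times the reported count for each of the 9 comparisons under each setting run. Leaving out each library in turn gave 26 to 27 of 32 genes called in the mean comparison, 23 to 26 in set 8, 23 to 25 in set 7, 12 to 14 for the set difference, and 0 in nuclei. With the group alone fitted, 20 of the 32 were called (1 higher, 19 lower) and 2166 genes in all, 1443 higher and 723 lower, and Slc2a1 (limma adjusted p = 0.274), Slc16a3 (0.0935), Aldoa (0.0685), Mpc1 (0.444), Pfkp (0.477) and Slc16a1 (0.118) no longer passed. The median change in set 7 was -0.44 with median-of-ratios scaling, and that of VP64 only, set 8 minus set 7, was 0.24 with quantile scaling; the cause was not tested. Hk1 turned to -0.0043 with median-of-ratios scaling and Pdk2 to -0.0605 with quantile scaling; with each library left out in turn, Pdk2 ran from -0.038 to 0.161, and none of these was called. The set difference of Pgm2 was lost without VP64 only replicate 5 (limma adjusted p = 0.0519) and with quantile scaling (0.059), and with no filter on low values so were those of Eno1 (0.0545), Ldha (0.0736), Pfkl (0.055) and Slc2a3 (0.0712). In the mean comparison, Hk1 passed without VP64 only replicate 3 (0.10), Pdhb without CRISPRa replicate 4 (0.10), Pfkfb4 without CRISPRa replicate 5 (0.32) and Pfkfb3 with median-of-ratios scaling (-0.10). Libraries with the same replicate number share a library set and are not paired otherwise; with a replicate block, 26 of the 32 were called (1 higher, 25 lower) and 4513 genes in all, and in nuclei none of the 34, beside 31 genes in all for Het CRISPRa minus Het in place of 8. Without Het replicate 3 that number was 38. Genes at an unadjusted p under 0.05 also moved by over 1.5 times for Het CRISPRa minus Het without Het CRISPRa replicate 2 (577) or Het replicate 1 (591), for Het minus WT without WT replicate 2 (622), and for Het CRISPRa minus WT without WT replicate 2 (188) or 3 (692). Genes under a few CPM, such as Hk2 and Gbe1 in nuclei, are limited by depth.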
